A study of Sus scrofa with 24 samples.

Results

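The genes described here encode the enzymes of glycolysis, membrane proteins that carry glucose and lactate, and genes that hypoxia-inducible factors (HIF) are known to switch on, measured by RNA sequencing in primary pig preadipocytes driven towards fat cells. They were chosen by symbol: of 37 genes listed, 32 had a row in a table of 25462 genes, of which 16135 were tested, all 32 among them. The 32 comprised 17 glycolytic enzymes, 3 regulatory enzymes (PFKFB3, PFKFB4 and PDK1), 1 lactate transporter (SLC16A3), 3 genes of the HIF system itself (HIF1A, EPAS1 and EGLN1) and 8 HIF targets outside glycolysis. The glucose transporters SLC2A1 and SLC2A3, the lactate transporter SLC16A1, and the HIF targets BNIP3 and CA9 matched no row by symbol and were not analysed here, so glucose uptake is not covered.

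Preadipocytes were isolated with collagenase from 2 tissues of 3 Yorkshire piglets aged 6 days, the subcutaneous back fat (BF) and the longissimus dorsi muscle, whose digested tissue gave the intramuscular cells (IMF). The sources are called depots here. Both depots received the same media: IBMX, dexamethasone and insulin for 2 days, insulin for the next 2, and growth medium after that. Libraries were made on days 0, 2, 4 and 8 with 3 replicates for each depot and day, which gave 8 groups (BF-0d to IMF-8d) and 24 libraries. The labels do not say whether a replicate was 1 piglet, so p-values measure only the spread between these samples, which may be technical. The unit is FPKM, in which fragments are divided by transcript length and by the library's mapped fragments. Fold changes are log2 differences on the log2(FPKM + 1) scale with their standard error (SE), and a gene was called, and is said to have risen or fallen, when limma gave an adjusted p under 0.01 together with a log2 fold change of at least 1 in either direction.

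Glycolysis splits glucose into pyruvate, and lactate dehydrogenase turns pyruvate into lactate, which leaves the cell through monocarboxylate transporters. HIF1A and EPAS1 encode the oxygen-labile subunits of the HIF transcription factors. When oxygen is plentiful, prolyl hydroxylases such as EGLN1 mark these subunits for breakdown, so that HIF activity is set largely by protein stability, which transcript levels do not measure. HIF binds short DNA motifs near glycolytic genes and near genes for blood vessel growth such as VEGFA. In fat cells, glycolysis also supplies glycerol phosphate and acetyl units for lipid.

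Summed FPKM ran from 307967 to 385768 per library, and since the table holds no read counts the depth behind a value is unknown. The library BF-2d replicate 3 stood apart. Its score on the first principal component of the tested genes (52.3% of the variance) was -17.2, against 26.5 and 27.2 in the other two BF-2d libraries and -37.7 to -34.2 in BF-0d, and BF-4d replicate 3 scored 65.1 against 43.1 and 51.0 in its group. Counts of called genes that rest on BF-2d are therefore given with and without replicate 3. The model takes 1 spread per gene from all 8 groups, and the groups were not equally spread. The 17 glycolytic enzymes summed to 6363 ± 2474.5 FPKM (SD, n = 3) in BF-2d, 2517.5 ± 79.0 in BF-0d and 3597 ± 218 in IMF-2d. An SE or p-value can thus be too small where BF-2d is compared, and too large between groups of narrow spread. Of the adipocyte markers, PLIN1, PLIN4, LEP and DGAT2 reached at most 0.0773 FPKM and ADIPOQ at most 0.230 FPKM in any library, whereas LPL, the lipase of fat cells and the 1 marker of the 10 tested that rose in BF over the whole course, read 1.58 to 2.76 FPKM in BF-0d, 276 to 611 in BF-8d, 0.822 to 1.18 in IMF-0d and 93.7 to 141 in IMF-8d. The stromal gene COL1A1 lay between 526 and 6518 FPKM. CD3E and MS4A1 of lymphocytes and MYF5 and MYOD1 of muscle precursors were listed at 0 in all 24 libraries.

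The 2 depots followed different courses. In BF, 14 of 32 genes rose over the first interval (day 0 to day 2), 2 of 32 over the second (day 2 to day 4) and 3 of 32 over the last (day 4 to day 8), and 0 fell. Among all tested genes, 2.71% were called higher and 3.87% lower in BF over the first interval, 2.01% and 1.34% over the second, and 1.78% and 1.14% over the last. In IMF, 0 of 32 genes were called over the first interval, where the background was 0.328% higher and 0.459% lower, and 0 of 32 over the second, where it was 0.031% and 0.0062%. At an unadjusted p under 0.05, limma listed 16 and 4 of the 32 in these 2 intervals, where it listed 21.2% and 8.34% of all genes. Over the last interval 19 of 32 rose in IMF and 0 fell, against 4.16% of all genes called higher and 3.08% lower, and the change was positive for all 32.

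Between day 0 and day 8, 23 of 32 genes rose in BF (background 6.28% higher and 7.39% lower) and 9 of 32 in IMF (background 4.56% and 4.49%), with 0 lower in both. In these bulk samples a change in the number of cells of a type cannot be told apart from a change in the RNA of each cell. The first BF interval leaned on single libraries: its count of 14 became 17 without BF-2d replicate 3, 6 without BF-2d replicate 2, and 1 when the model was fitted on only the 6 libraries compared. Without BF-2d replicate 2, calls among all genes came to 698, against 438 higher and 625 lower in the main fit. The count of 2 over the second interval was also 2 without BF-2d replicate 3. The last BF interval went from 3 to 1 without BF-4d replicate 1, BF-4d replicate 2 or BF-8d replicate 3, and to 0 in the fit of 6 libraries, as did the second, from 2. Leaving out these libraries gave 295, 299 and 340 calls among all genes over the last interval, against 288 higher and 184 lower in the main fit.

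**Figure D1:**
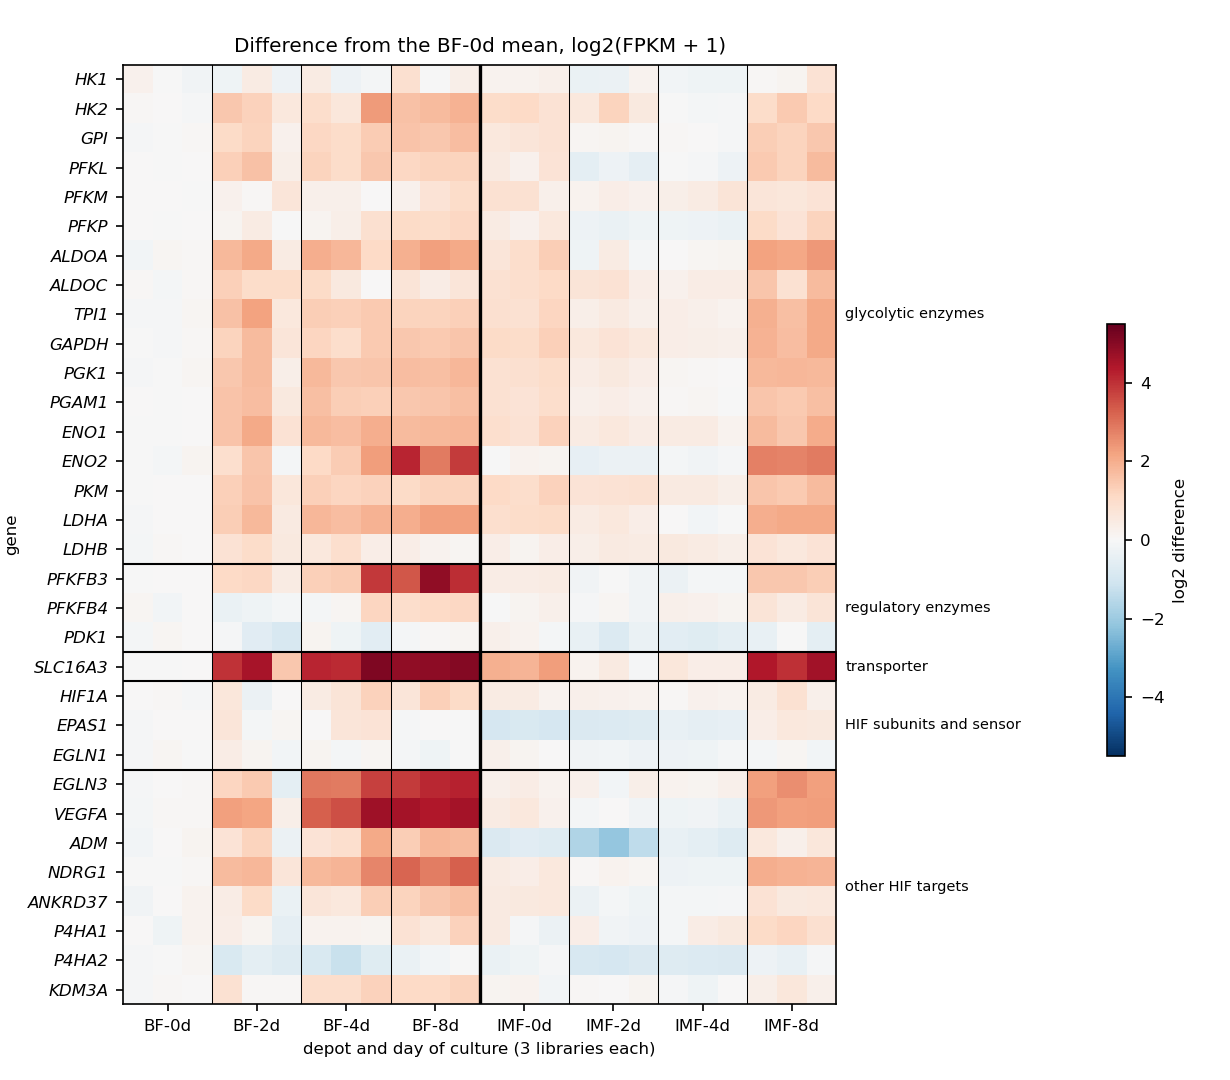
Difference of each library from the BF-0d mean on the log2(FPKM + 1) scale for the 32 genes (rows, by role) in 24 libraries (columns, 3 for each depot and day). Most BF rows turn red from day 2, less so in BF-2d replicate 3, whereas IMF is pale on days 2 and 4 and red on day 8.

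Glycolytic enzymes rose in BF over the first interval and in IMF over the last. Of 17 enzymes, 11 rose in BF between day 0 and day 2, where 2.71% of all genes did, with a median log2 fold change over the 17 of 1.11 where the median of all tested genes was -0.04. This count was 13 without BF-2d replicate 3, 4 without BF-2d replicate 2, 6 after quantile normalization and 1 in the fit of the 6 libraries compared. In the later BF intervals 0 of 17 were called over the second and 1, ENO2, over the last (background 2.01% and 1.78% higher). Over the last, 5 of 17 were higher and 2 lower without overlap, against 10.4% and 21.8% of all genes. The median change of the 17 between day 0 and day 8 was 1.49. In IMF, 14 of 17 rose over the last interval, where 4.16% of all genes did, with a median of 1.40 (all genes -0.07). HK1 (a hexokinase), PFKM (the muscle-type phosphofructokinase) and LDHB (the heart-type lactate dehydrogenase subunit) were called in 0 of the 12 pairwise comparisons of days and depots. Their libraries covered 39.3 to 93.9, 7.66 to 17.0 and 12.2 to 27.2 FPKM. Each of the 3 has a sister gene for the same step that was called: HK2, PFKL and PFKP, and LDHA.

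ENO1 encodes the widespread form of enolase (Ensembl gene ENSSSCG00000022343, RefSeq chr6:69385879-69401664 of Sscrofa11.1). In BF it read 459, 454 and 475 FPKM on day 0, 1387, 1956 and 798 on day 2, 1604, 1500.4 and 1848 on day 4 and 1526, 1576 and 1652 on day 8. Every BF library after day 0 lay above every BF-0d library, and BF-2d replicate 3 was the lowest of them. The change between day 0 and day 2 was 1.48 (SE 0.22, adjusted p = 3.53e-05), and 1.83 (adjusted p = 5.75e-08) without BF-2d replicate 3. In IMF, ENO1 read 892, 811 and 1103 FPKM on day 0, 624, 683 and 616 on day 2, 633, 631 and 522 on day 4 and 1551, 1299 and 1893 on day 8. IMF thus lay above BF on day 0, below it on days 2 and 4, and overlapped it on day 8, with a rise over the last interval of 1.40 (SE 0.22, adjusted p = 5.21e-05).

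ALDOA encodes the aldolase that cuts fructose bisphosphate (ENSSSCG00000032556, chr3:18246036-18260167). Its BF libraries read 90.8, 107 and 105 FPKM on day 0, 347, 431 and 138 on day 2, 402, 360.4 and 214 on day 4 and 394, 486 and 429 on day 8. Its IMF libraries read 159.5, 195 and 261 FPKM on day 0, 85.9, 137 and 93.9 on day 2, 101, 109 and 110.1 on day 4 and 469, 439.6 and 535 on day 8. The step up came by day 2 in BF (1.44, SE 0.30, adjusted p = 0.00116) and after day 4 in IMF (2.16, SE 0.30, adjusted p = 1.82e-05). BF-4d replicate 3 was the lowest of its group for ALDOA, while for ENO1 it was the highest.

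LDHA encodes the muscle-type lactate dehydrogenase subunit, which favours lactate (ENSSSCG00000013366, chr2:40814163-40827284). BF gave 261, 272 and 276 FPKM on day 0, 691, 938 and 379 on day 2, 969.7, 882 and 1027 on day 4 and 1092, 1287 and 1300.5 on day 8. IMF gave 518, 540.1 and 557 FPKM on day 0, 367, 403 and 349 on day 2, 274, 243 and 262 on day 4 and 1084, 1145 and 1152 on day 8. In IMF all libraries of days 2 and 4 lay below those of the time point before, and all of day 8 lay above every earlier one. The change over the last interval was 2.12 (SE 0.20, adjusted p = 1.22e-07) in IMF and 0.35 (SE 0.20, adjusted p = 0.232) in BF, the latter not called.

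PFKL encodes the liver-type phosphofructokinase, the committing step of glycolysis. It read 28.4, 27.4 and 28.9 FPKM on day 0, 71.1, 88.4 and 35.1 on day 2, 66.4, 57.5 and 80.2 on day 4 and 62.5, 67.5 and 67.4 on day 8 in BF. In IMF it read 40.7, 33.4 and 47.6 FPKM on day 0, 19.1, 23.2 and 19.5 on day 2, 27.6, 27.1 and 22.9 on day 4 and 79.3, 67.8 and 97.7 on day 8. The 3 IMF-8d libraries lay above the 3 BF-8d libraries, a difference of 0.29 that was not called (adjusted p = 0.34).

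ENO2, the enolase best known from neurons, was low until day 4. Its BF libraries held 0.830, 0.699 and 1.05 FPKM on day 0, 2.49, 4.33 and 0.733 on day 2, 2.97, 3.91 and 8.03 on day 4 and 32.7, 12.5 and 25.8 on day 8. Its IMF libraries held 0.829, 1.09 and 1.08 FPKM on day 0, 0.370, 0.477 and 0.470 on day 2, 0.735, 0.623 and 0.760 on day 4 and 11.6, 11.1 and 12.3 on day 8. The log2 fold change over the last interval was 2.04 (SE 0.33, adjusted p = 2.68e-04) in BF and 2.89 (SE 0.33, adjusted p = 1.51e-06) in IMF, and the test of the difference between these changes was not past the threshold (adjusted p = 0.225). ENO2 remained a small part of enolase: as a share of ENO1 and ENO2 FPKM, which are scaled by length, it was 0.185% ± 0.0336 (SD, n = 3) in BF-0d, 1.47% ± 0.655 in BF-8d, 0.108% ± 0.0229 in IMF-0d and 0.745% ± 0.102 in IMF-8d.

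GAPDH, the glyceraldehyde phosphate dehydrogenase often used as a reference gene, had the highest FPKM of the 32 genes in all 24 libraries and was not constant. In BF it read 844, 805 and 893 FPKM on day 0, 1985, 2799 and 1329 on day 2, 1934, 1641 and 2282 on day 4 and 2361, 2311 and 2456 on day 8. In IMF it read 1764, 1689 and 2084 FPKM on day 0, 1269, 1441 and 1269 on day 2, 1078, 1063 and 1024 on day 4 and 3209, 2751 and 3589 on day 8. GAPDH rose in BF over the whole course, with a log2 fold change of 1.49 (SE 0.19, adjusted p = 1.72e-06) between BF-0d and BF-8d and an excess of IMF over BF on day 0 of 1.12 (SE 0.19, adjusted p = 2.54e-04). GAPDH and several other enzymes of glycolysis have processed pseudogenes in mammals, and fragments shared with such copies cannot be separated in FPKM.

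Other enzymes rose over the same intervals. HK2 (hexokinase), PGK1 (phosphoglycerate kinase), PGAM1 (its mutase), TPI1 (triose phosphate isomerase), PKM (pyruvate kinase) and ALDOC (an aldolase) had log2 fold changes of 1.11, 1.18, 1.26, 1.46, 1.16 and 1.11 in BF over the first interval, all called. The same 6 genes had 1.25, 1.72, 1.49, 1.61, 1.11 and 1.01 in IMF over the last, also all called. GPI, the isomerase of the second step, and PFKP, the platelet-type phosphofructokinase, rose in BF over the whole course (1.58 and 1.08) and in IMF over the last interval (1.36 and 1.31). In BF the ALDOC libraries read 4.75, 4.18 and 4.80 FPKM on day 0, 12.9, 10.3 and 10.1 on day 2, 10.6, 7.05 and 4.58 on day 4 and 8.21, 6.29 and 7.87 on day 8, with replicate 3 of day 4 within the range of day 0 and all 3 of day 8 below all 3 of day 2. The change of ALDOC over the whole course, 0.59 (SE 0.22, adjusted p = 0.0305), was not called.

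Summed over the 17 enzymes, glycolytic transcripts took 0.794% ± 0.0106 (SD, n = 3) of a library's FPKM in BF-0d, 1.74% ± 0.603 in BF-2d, 2.00% ± 0.191 in BF-4d and 2.34% ± 0.0850 in BF-8d. In IMF they took 1.48% ± 0.116 on day 0, 1.07% ± 0.0546 on day 2, 0.869% ± 0.0263 on day 4 and 2.40% ± 0.205 on day 8. The BF-2d libraries spread widest, from 1.08% in replicate 3 to 2.27% in replicate 2, and the day 8 ranges of both depots overlapped. The 8 HIF targets outside glycolysis took 0.136% ± 0.00495 in BF-0d and 0.573% ± 0.0628 in BF-8d, but 0.125% ± 0.00641 in IMF-0d and 0.228% ± 0.00844 in IMF-8d, with no overlap between depots on day 8. VEGFA and NDRG1 weighed heavily in these sums. The other 6 took 0.107% ± 0.00509 in BF-0d, 0.173% ± 0.0225 in BF-8d, 0.0884% ± 0.00558 in IMF-0d and 0.121% ± 0.00529 in IMF-8d.

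**Figure D2:**
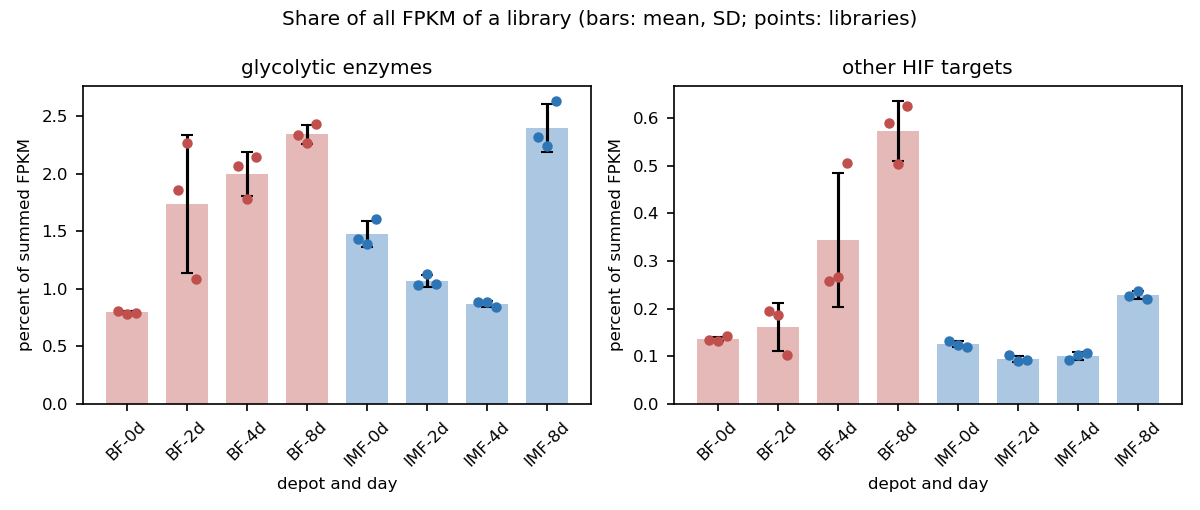
Share (percent) of the summed FPKM of each library held by the 17 glycolytic enzymes and by the 8 HIF targets outside glycolysis. Bars are group means with SD (n = 3) and points are libraries. On day 8 the enzymes stand at 2.34% in BF and 2.40% in IMF, and the other targets at 0.573% and 0.228%.

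The make-up of isozymes shifted as well. PFKL took 42.4% ± 0.431 (SD, n = 3) of the summed FPKM of PFKL, PFKM and PFKP in BF-0d, 57.0% ± 10.4 in BF-2d, 56.8% ± 3.26 in BF-4d and 45.5% ± 1.41 in BF-8d. In IMF it took 42.5% ± 3.33 on day 0, 37.3% ± 2.76 on day 2, 41.6% ± 2.77 on day 4 and 51.6% ± 1.20 on day 8. The BF share was thus highest in the middle of the course and the IMF share at its end. LDHB made up 4.63% ± 0.139 of LDHA and LDHB in BF-0d and 1.25% ± 0.235 in BF-8d. In IMF the LDHB share stood at 2.94% ± 0.271 on day 0, 6.57% ± 0.481 on day 4 and 1.89% ± 0.186 on day 8. No test was run on these shares.

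The promoters of these genes were searched for the core of the HIF response element, ACGTG or GCGTG on either strand, in the 250 bases before the 5′ end of each RefSeq gene (Sscrofa11.1). The palindrome CACGTG, which is also an E-box bound by factors such as MYC, counts as a match on each strand. Of the 31 members with a single RefSeq locus, 17 held at least 1 match and 11 at least 2, among them 10 of 16 glycolytic enzymes and 4 of 8 other HIF targets with at least 1. Over all 19556 promoters of protein-coding genes, 43.5% held at least 1 match and 19% at least 2. The members' promoters were richer in G and C (median 63.6%, against 57.6% over all), which was not adjusted for. Shown 5′ to 3′ with the matches in capitals are 3 enzyme genes that rose in BF over the first interval, ENO1 and PKM with 5 matches and PGK1 with 3 (as many as ALDOC), and beside them VEGFA, which with NDRG1 was called in the most pairwise comparisons and whose window held 0 matches.
ENO1 (chr6:69401665-69401914, minus strand): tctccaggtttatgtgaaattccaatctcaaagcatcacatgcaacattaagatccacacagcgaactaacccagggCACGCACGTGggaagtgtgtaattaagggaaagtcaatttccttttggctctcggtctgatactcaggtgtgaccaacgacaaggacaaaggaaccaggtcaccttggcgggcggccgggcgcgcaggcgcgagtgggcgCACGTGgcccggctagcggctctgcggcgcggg
PKM (chr7:60971557-60971806, plus strand): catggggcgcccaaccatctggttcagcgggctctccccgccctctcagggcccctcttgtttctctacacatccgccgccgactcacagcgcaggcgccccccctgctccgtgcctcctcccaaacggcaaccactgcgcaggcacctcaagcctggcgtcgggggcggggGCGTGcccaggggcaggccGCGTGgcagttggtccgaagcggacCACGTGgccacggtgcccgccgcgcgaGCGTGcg
PGK1 (chrX:62187222-62187471, plus strand): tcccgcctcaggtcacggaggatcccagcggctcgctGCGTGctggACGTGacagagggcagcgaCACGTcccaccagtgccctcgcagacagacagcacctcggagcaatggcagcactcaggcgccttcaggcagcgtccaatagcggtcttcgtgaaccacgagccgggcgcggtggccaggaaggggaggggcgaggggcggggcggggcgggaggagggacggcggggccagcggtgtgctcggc
VEGFA (chr7:38746143-38746392, plus strand): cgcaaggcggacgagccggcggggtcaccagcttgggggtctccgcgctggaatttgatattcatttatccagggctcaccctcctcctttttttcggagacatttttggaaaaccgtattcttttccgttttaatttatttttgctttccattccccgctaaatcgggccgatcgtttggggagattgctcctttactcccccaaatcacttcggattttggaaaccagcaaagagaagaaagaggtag
The match nearest the gene started 32 bases before the 5′ end in ENO1, 7 in PKM and 185 in PGK1. ENO1 held the palindrome at 2 places and PKM at 1. LDHA, ALDOA, GAPDH, TPI1, GPI, PFKP, PFKFB4, SLC16A3, HIF1A, EPAS1, EGLN3, KDM3A and NDRG1 also held 0 matches in this window, which says only that the letters are not there. The windows rest on the 5′ ends of gene models, which were not checked to be where transcription starts.

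Of the regulatory enzymes, PFKFB3 had the largest change. It makes fructose bisphosphate of the kind that activates phosphofructokinase. Its BF libraries read 0.679, 0.719 and 0.701 FPKM on day 0, 2.66, 2.77 and 1.30 on day 2, 3.22, 3.48 and 24.4 on day 4 and 17.1, 48.5 and 27.5 on day 8. BF-4d replicate 3 lay within the range of day 8, and the other two BF-4d libraries just above day 2. In IMF, PFKFB3 read 1.23, 1.22 and 1.35 FPKM on day 0, 0.466, 0.651 and 0.472 on day 2, 0.358, 0.598 and 0.560 on day 4 and 3.77, 3.68 and 3.39 on day 8. The change between day 0 and day 8 was 4.11 (SE 0.45, adjusted p = 3.37e-07) in BF and 1.02 (SE 0.45, adjusted p = 0.0804) in IMF, the latter not called.

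PFKFB4, another enzyme of this kind, held 2.20, 1.71 and 2.04 FPKM on day 0, 1.31, 1.53 and 1.78 on day 2, 1.79, 2.18 and 5.71 on day 4 and 4.73, 5.34 and 5.60 on day 8 in BF. Its rise in BF between day 0 and day 8, 1.06 (SE 0.21, adjusted p = 2.65e-04), was its only call in the 12 pairwise comparisons. In IMF it held 1.93, 2.29 and 2.56 FPKM on day 0, 1.84, 2.17 and 1.63 on day 2, 2.59, 2.55 and 2.28 on day 4 and 3.88, 3.07 and 3.80 on day 8. PFKFB3 made up 26.3% ± 3.09 (SD, n = 3) of the pair's FPKM in BF-0d and 83.8% ± 5.90 in BF-8d, against 36.1% ± 2.43 in IMF-0d and 50.3% ± 3.78 in IMF-8d. PDK1, the kinase that keeps pyruvate out of the citrate cycle, was called in 0 of 12 comparisons. Its BF libraries read 14.5, 16.9 and 16.3 FPKM on day 0, 14.9, 9.93 and 8.09 on day 2, 17.6, 13.4 and 10.2 on day 4 and 14.8, 16.7 and 17.2 on day 8, and its IMF libraries 19.2, 18.4 and 14.7 FPKM on day 0, 11.9, 9.15 and 12.2 on day 2, 10.1, 9.56 and 10.5 on day 4 and 11.8, 15.5 and 10.5 on day 8.

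SLC16A3 encodes the lactate exporter MCT4 (ENSSSCG00000024018, chr12:796882-807480) and had the largest log2 fold change of the 32 genes, 4.94, SE 0.48, adjusted p = 7.09e-08, between BF-0d and BF-8d. BF held 3.08, 3.05 and 3.15 FPKM on day 0, 62.6, 94.8 and 10.3 on day 2, 73.9, 68.8 and 143 on day 4 and 118, 122 and 136 on day 8. BF-2d replicate 3, the lowest of its group, was still above all BF-0d libraries. IMF held 14.7, 13.9 and 19.3 FPKM on day 0, 3.70, 4.75 and 2.90 on day 2, 5.32, 4.25 and 4.28 on day 4 and 85.6, 66.1 and 98.6 on day 8. The order of the depots therefore changed with time, with IMF above BF on day 0 and below it without overlap on days 2, 4 and 8, the gap being smallest on day 8, when the highest BF and IMF libraries read 136 and 98.6 FPKM. IMF exceeded BF on day 0 with a log2 difference of 2.04 (SE 0.48, adjusted p = 0.00586). It was below BF on day 2 (-3.12, SE 0.48, adjusted p = 1.14e-04) and on day 4 (-4.02, SE 0.48, adjusted p = 1.66e-06). On day 8 it was -0.60 (SE 0.48, adjusted p = 0.355) and was not called (95% interval -1.59 to 0.40). The SE of 0.48 is common to all groups and takes in the wide spread of BF-2d, whereas the day 8 libraries of the depots did not overlap.

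The HIF genes themselves had 2 calls in all 12 pairwise comparisons. Without BF-2d replicate 3, EPAS1 was also called, lower in IMF than in BF on day 2. HIF1A (ENSSSCG00000005096, chr1:190625436-190673926) read 74.2, 77.8 and 70.5 FPKM on day 0, 115, 59.7 and 75.3 on day 2, 102, 122 and 182 on day 4 and 119, 184 and 154 on day 8 in BF. In IMF it read 103, 103 and 85.6 FPKM on day 0, 89.2, 88.4 and 84.9 on day 2, 77.4, 87.5 and 84.1 on day 4 and 103, 135 and 89.4 on day 8. Its call was the rise in BF between day 0 and day 8, 1.01 (SE 0.22, adjusted p = 6.73e-04). Over the first BF interval, in which 11 enzymes rose, the change of HIF1A was 0.12 (95% interval -0.34 to 0.57).

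EPAS1 encodes HIF-2 alpha (ENSSSCG00000008443, chr3:94167759-94253662). Its BF libraries held 82.2, 87.5 and 86.9 FPKM on day 0, 136, 80.5 and 93.1 on day 2, 88.1, 135 and 145 on day 4 and 81.4, 87.6 and 85.2 on day 8. Its IMF libraries held 44.8, 47.2 and 44.3 FPKM on day 0, 49.3, 49.7 and 51.9 on day 2, 63.5, 60.7 and 61.6 on day 4 and 110.3, 127 and 125 on day 8. IMF lay below BF without overlap on days 0, 2 and 4, and above it without overlap on day 8. IMF minus BF came to -0.90 (SE 0.16, adjusted p = 5.83e-04), -0.99 (SE 0.16, adjusted p = 2.14e-04) and -0.94 (SE 0.16, adjusted p = 9.54e-05) on days 0, 2 and 4. Each was past the adjusted p and short of the fold required for a call. Without BF-2d replicate 3 the day 2 difference was -1.04 (SE 0.18, adjusted p = 1.73e-04) and was called. Between day 0 and day 8 EPAS1 rose in IMF by 1.39 (SE 0.16, adjusted p = 1.31e-06), while in BF the change was -0.01 (95% interval -0.35 to 0.32).

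As a share of HIF1A and EPAS1 FPKM, EPAS1 stood at 53.6% ± 1.45 (SD, n = 3) in BF-0d and 36.2% ± 4.21 in BF-8d, and at 32.0% ± 1.93 in IMF-0d and 52.9% ± 5.02 in IMF-8d. EGLN1, the main oxygen sensor among the prolyl hydroxylases, was called in 0 of 12 comparisons. Its BF libraries read 11.8, 13.5 and 12.4 FPKM on day 0, 16.8, 13.8 and 11.0 on day 2, 14.0, 11.6 and 13.4 on day 4 and 11.5, 10.4 and 12.3 on day 8, and its IMF libraries 15.5, 14.1 and 12.9 FPKM on day 0, 10.9, 11.3 and 10.3 on day 2, 10.3, 10.5 and 11.7 on day 4 and 11.5, 13.8 and 11.1 on day 8.

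**Figure D3:**
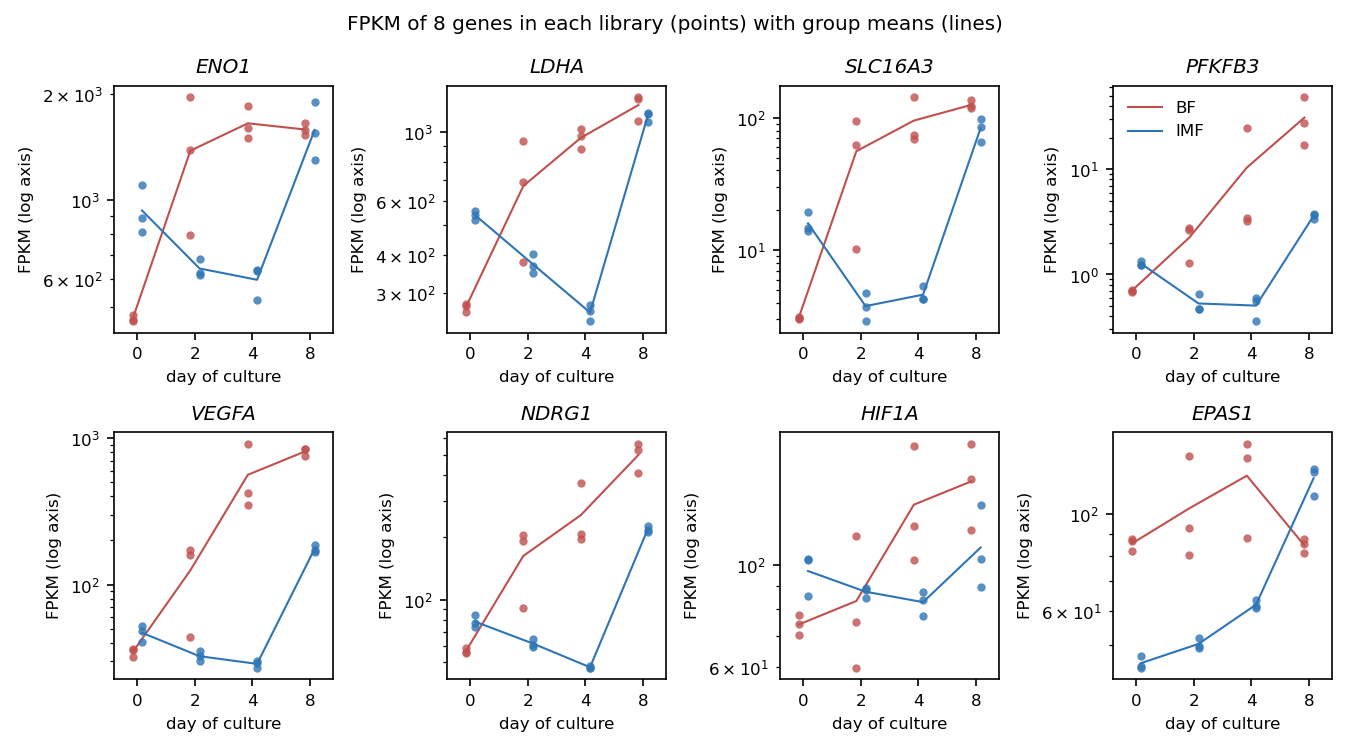
FPKM (log axis) of 8 genes by day of culture (days evenly spaced), with 1 point for each library and lines through the group means, BF in red and IMF in blue. The IMF means of ENO1, LDHA and SLC16A3 lie below those of BF on days 2 and 4 (LDHA libraries overlap on day 2) and come close to them on day 8, PFKFB3, VEGFA and NDRG1 of IMF are below BF on day 8, and EPAS1 of IMF passes from below BF to above it.

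HIF targets outside glycolysis were called in each BF interval. Of 8, 2 (VEGFA and NDRG1) rose over the first interval (3 without BF-2d replicate 3, EGLN3 being the other, and 1 without BF-2d replicate 1 or 2), 2 (VEGFA and EGLN3) over the second (also 2 without it), 1 (NDRG1) over the last and 6 over the whole course, where 2.71%, 2.01%, 1.78% and 6.28% of all genes were called higher. In IMF, 3 (VEGFA, NDRG1 and EGLN3) rose over the last interval and 4 over the whole course, ADM being the other (background 4.16% and 4.56% higher). P4HA1 and P4HA2, which hydroxylate collagen, were called in 0 of the 12 comparisons and covered 67.3 to 229 and 83.8 to 209 FPKM.

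VEGFA encodes a growth factor of blood vessels (ENSSSCG00000001695, chr7:38746393-38762282). In BF it gave 31.9, 36.2 and 36.1 FPKM on day 0, 171, 160.2 and 44.1 on day 2, 349, 420.0 and 914 on day 4 and 842, 749 and 842 on day 8. Each BF group lay above all libraries of the days before it, except that BF-4d replicate 3 exceeded the BF-8d libraries. In IMF it gave 47.9, 52.1 and 40.9 FPKM on day 0, 32.5, 35.0 and 30.1 on day 2, 29.1, 30.3 and 27.1 on day 4 and 185, 168 and 173 on day 8. The change between day 0 and day 8 was 4.51 (SE 0.35, adjusted p = 4.13e-09) in BF and 1.89 (SE 0.35, adjusted p = 2.79e-04) in IMF, and on day 8 IMF minus BF was -2.20 (SE 0.35, adjusted p = 7.48e-05).

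NDRG1, a stress-responsive gene long used as a marker of hypoxia, read 56.0, 55.4 and 58.4 FPKM on day 0, 193, 205 and 91.3 on day 2, 197, 207 and 365 on day 4 and 524, 407 and 565 on day 8 in BF. In IMF it read 77.3, 74.1 and 84.5 FPKM on day 0, 59.4, 65.2 and 60.8 on day 2, 47.1, 48.0 and 47.2 on day 4 and 226, 216 and 212 on day 8. The IMF-8d libraries lay above all earlier IMF libraries and below all BF-8d libraries. The log2 fold change over the last interval in IMF was 2.18 (SE 0.23, adjusted p = 7.28e-07).

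EGLN3 encodes a prolyl hydroxylase that is itself induced by HIF. In BF it read 3.17, 3.47 and 3.55 FPKM on day 0, 8.88, 10.9 and 2.06 on day 2, 31.4, 30.5 and 58.9 on day 4 and 61.7, 76.9 and 82.0 on day 8. The change over the second interval was called (2.47, SE 0.33, adjusted p = 4.75e-05) and that over the first was not. BF-2d replicate 3 lay below the day 0 libraries here. Without it the change was 1.30 (adjusted p = 7.88e-05) over the first interval and 1.86 (adjusted p = 1.83e-05) over the second, both called, so that the timing depended on this library. In IMF it read 4.28, 4.91 and 3.98 FPKM on day 0, 4.27, 2.96 and 4.54 on day 2, 4.02, 3.82 and 4.37 on day 4 and 19.9, 25.0 and 19.9 on day 8.

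ADM encodes the vessel-dilating peptide adrenomedullin. Its BF libraries held 34.4, 38.3 and 41.9 FPKM on day 0, 65.5, 89.4 and 30.1 on day 2, 65.1, 74.0 and 165 on day 4 and 99.1, 138 and 131 on day 8. Its IMF libraries held 21.4, 24.2 and 22.7 FPKM on day 0, 11.5, 7.96 and 13.9 on day 2, 28.0, 25.7 and 23.2 on day 4 and 58.2, 46.4 and 59.0 on day 8. IMF lay below BF on all 4 days without overlap, with calls on days 2, 4 and 8 and a log2 difference of -0.72 (adjusted p = 0.153) on day 0. KDM3A, a histone demethylase, read 5.75, 6.44 and 6.12 FPKM on day 0, 11.7, 6.32 and 6.49 on day 2, 13.0, 12.8 and 16.3 on day 4 and 14.1, 14.3 and 15.4 on day 8 in BF. The IMF libraries of KDM3A read 6.91, 7.04 and 5.49 FPKM on day 0, 6.40, 6.28 and 6.85 on day 2, 5.69, 4.99 and 6.22 on day 4 and 8.00, 10.1 and 7.59 on day 8. KDM3A rose in BF over the whole course by 1.14. ANKRD37 read 1.29 to 1.94 FPKM in BF-0d and 5.14 to 7.24 in BF-8d, a rise of 1.47 (SE 0.24, adjusted p = 3.39e-05). In IMF its change over the course was 0.08 (adjusted p = 0.824).

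The comparison of depots on a single day asked whether cells of both depots expressed these genes at the same level. On day 0 IMF exceeded BF for 4 of 32 genes, GAPDH, ENO1, PKM and SLC16A3, and was below it for 0, where 1.87% of all genes were called higher in IMF and 0.713% lower. All 17 enzymes had positive differences (median 0.91, all genes 0.03), and 22 of the 32 genes lay above BF without overlap, as did 23.5% of all genes. The 4 calls became 2 without BF-0d replicate 1 or IMF-0d replicate 3, and 2 under median-ratio scaling. Leaving out these libraries gave 362 and 382 calls among all genes, against 302 higher and 115 lower in the main fit. On day 2 IMF was below BF for 8 of 32 (background 2.02% lower, 2.71% higher). That count was 15 without BF-2d replicate 3, 4 without BF-2d replicate 1, 5 without BF-2d replicate 2 or IMF-2d replicate 1, and 0 when only the 6 libraries were fitted. Calls among all tested genes moved too, to 1287, 598, 445 and 585 in these leave-one-out fits, in that order. The main fit had 438 higher and 326 lower in IMF.

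On day 4 the depots differed in the most genes, with 17 of 32 lower in IMF (background 4.72% lower, 6.6% higher). These were 10 of 17 enzymes (median -1.19), PFKFB3, SLC16A3 and 5 of 8 other HIF targets (median -1.50). On day 8, 0 of 17 enzymes were called in either direction, with a median of 0.03, and limma gave an unadjusted p under 0.05 for 16 of all 32 genes, as it did for 44.7% of all tested genes. PFKFB3 (-2.67), VEGFA (-2.20), EGLN3 (-1.72), NDRG1 (-1.18) and ADM (-1.15) were lower in IMF, 5 of 32 in all (background 2.65% lower, 4.31% higher). For ENO1 the day 8 difference was -0.02 with a 95% interval of -0.47 to 0.43, and for PGK1 0.06 with an interval of -0.40 to 0.51. A difference of 1 in either direction lay outside both, which covers only these 2 of the 17 enzymes. Of the 17, 6 were higher and 3 lower in IMF on day 8 without overlap, as were 30.8% and 18.1% of all genes.

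**Figure D4:**
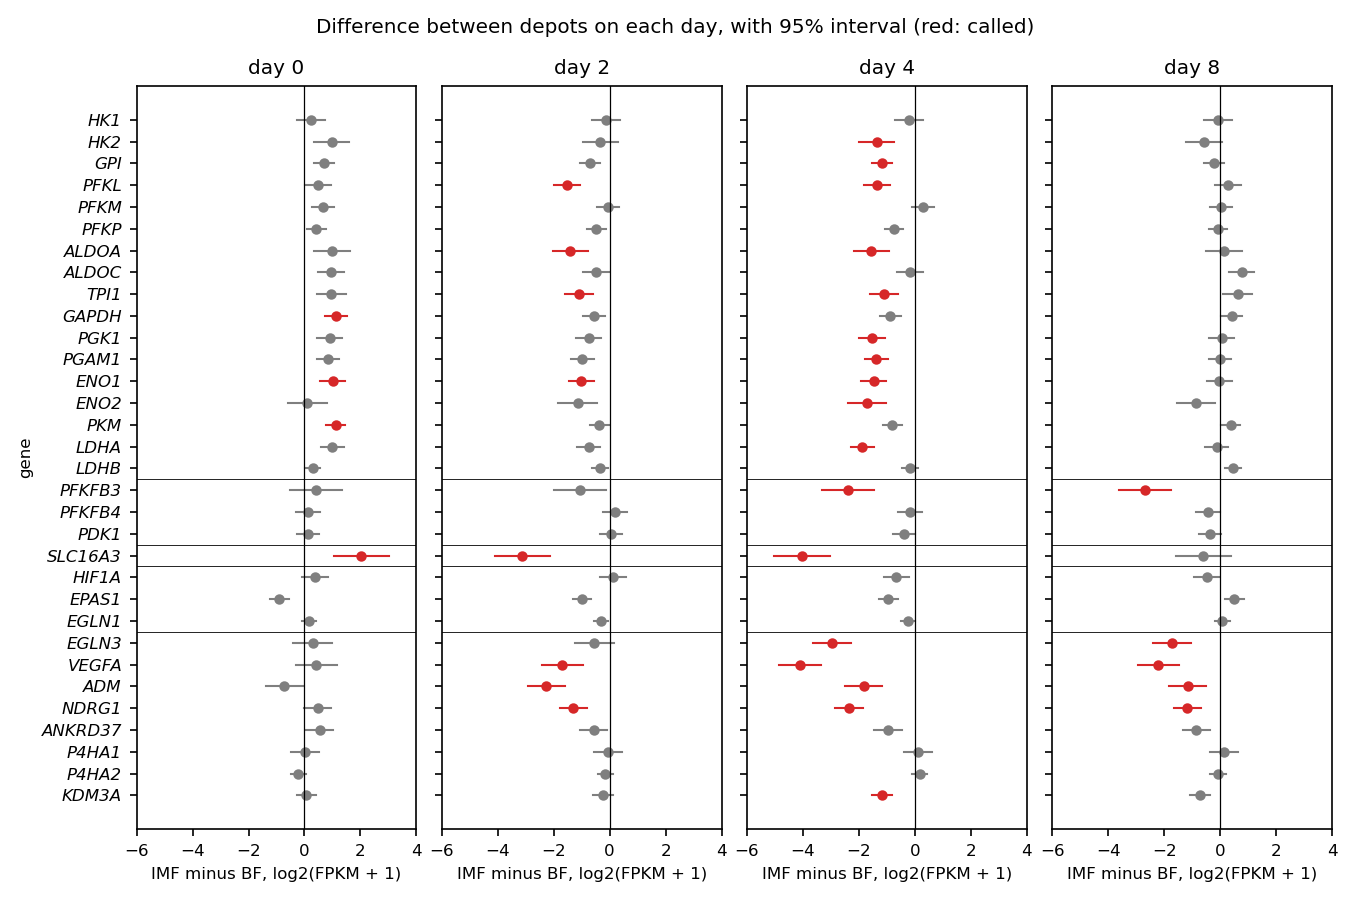
Difference between depots (IMF minus BF) on the log2(FPKM + 1) scale for the 32 genes on days 0, 2, 4 and 8, with 95% intervals from the model. Red points were called: 4 above 0 on day 0, 8 below 0 on day 2, 17 below 0 on day 4, and 5 below 0 on day 8, of which 0 were glycolytic enzymes.

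The difference between depots in the change over an interval was tested directly. Over the first interval, the change in IMF was below that in BF for 13 of 32 genes and above it for 0 (background 1.21% lower and 1.23% higher), of which 11 were enzymes (13 without BF-2d replicate 3). The largest was SLC16A3 with -5.15 (SE 0.67, adjusted p = 1.61e-04), followed by ALDOA with -2.39 (SE 0.43, adjusted p = 0.00178). This count was 19 without BF-2d replicate 3 and 3 in a fit of the 12 libraries concerned. Over the second interval it was below for 2 of 32, VEGFA and EGLN3 (background 1.3% lower and 1.76% higher). This count was 2 without BF-2d replicate 3, 4 without BF-2d replicate 1, 1 without any one of IMF-2d replicates 1 and 2 and the 3 IMF-4d libraries, and 0 in a fit of the 12 libraries. Among all genes 879 were called without BF-2d replicate 1, and 270 to 392 in the fits that gave 1. The main fit had 284 higher and 209 lower. Over the last interval the change in IMF exceeded that in BF for 11 of 32 (background 3.81% higher and 2.58% lower): 9 enzymes, SLC16A3 and EPAS1, and 0 of the 8 other HIF targets.

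Over the first interval, 16 of 17 enzymes had a positive change in BF and 16 of 17 a negative one in IMF. Of the 32 genes, 29 had a negative change in IMF and 23 were lower without overlap between the day 0 and day 2 libraries, as were 20.6% of all genes, although 0 were called. Higher without overlap was 1 of 32, against 14.7%. SLC16A3 had the largest of these changes, -1.83 (SE 0.48, adjusted p = 0.0219), and ALDOA the largest among the enzymes, -0.95. Over the last BF interval, 9 of 32 genes were higher without overlap, against 10.4% of all genes, and 3 were lower, against 21.8%.

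Over the whole course, SLC16A3, VEGFA, EGLN3, ENO2 and NDRG1 were among the 6 largest changes of both depots. The other in BF was PFKFB3, and in IMF it was EPAS1. At the low end, PDK1, EGLN1 and P4HA2 changed by 0.03, -0.13 and -0.18 in BF and by -0.45, -0.21 and -0.03 in IMF, with 0 calls. The enzymes that rose in IMF between day 0 and day 8 were ENO2, ALDOA and LDHA, and the remaining 14 had positive changes, from 0.04 for PFKM to 0.99 for PFKL.

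**Figure D5:**
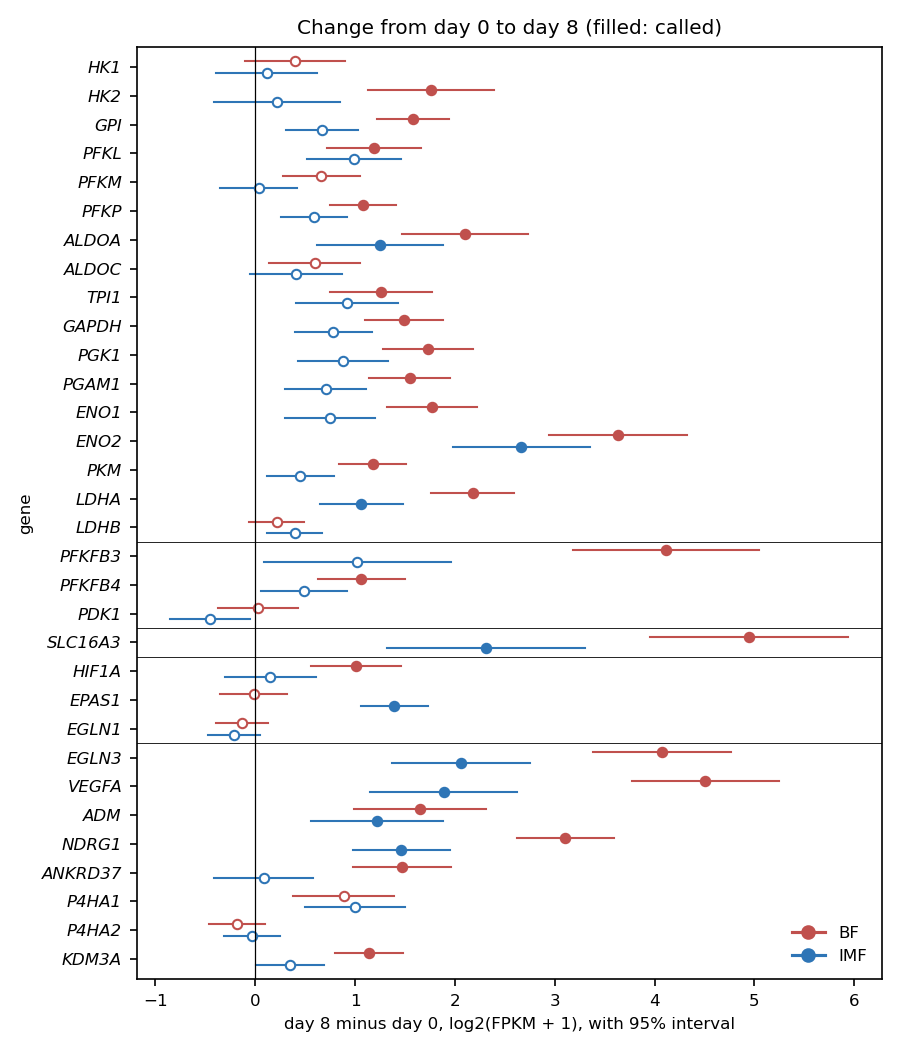
Change from day 0 to day 8 on the log2(FPKM + 1) scale with 95% intervals for the 32 genes, BF in red and IMF in blue, filled where called. BF has 23 filled points and IMF 9, and EPAS1 is filled in IMF and open in BF.

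Further genes of both pathways were taken from lists of other HIF-linked genes and other enzymes of glucose use. Of 29 HIF-linked genes tested, 14 rose and 1 fell in BF over the whole course (background 6.28% higher and 7.39% lower), and 7 rose and 2 fell in IMF (background 4.56% and 4.49%). The median change was at the fold limit of 1 in BF and 0.74 in IMF. In BF the largest changes were those of ANGPTL4, a secreted inhibitor of lipoprotein lipase (4.59), NDUFA4L2, a mitochondrial protein (3.43), and DDIT4, an inhibitor of mTOR signalling (3.39). ANGPTL4 read 108, 98.2 and 119 FPKM in BF-8d and 5.98, 6.08 and 9.29 in IMF-8d, a difference of -3.77 (SE 0.27, adjusted p = 2.60e-09). NDUFA4L2 was higher in IMF-8d (175, 153 and 194 FPKM) than in BF-8d (69.0, 56.1 and 75.0 FPKM), by 1.37 (SE 0.33, adjusted p = 0.00308).

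Of 21 further enzymes of glucose use tested, 3 rose and 3 fell in BF over the whole course, and 2 rose and 1 fell in IMF, with medians of -0.21 and 0.11. The same backgrounds, 6.28% higher and 7.39% lower in BF and 4.56% and 4.49% in IMF, apply to these counts. PCK1, which in fat cells feeds the making of glycerol phosphate, had the largest change. In BF it read 0.0322, 0.0582 and 0.115 FPKM on day 0, 611, 461 and 24.5 on day 2, 245, 217 and 54.7 on day 4 and 49.0, 22.4 and 64.3 on day 8. In IMF it read 0, 0.0302 and 0 FPKM on day 0, 0.162, 0.262 and 0 on day 2, 0.344, 0.136 and 0.229 on day 4 and 64.5, 99.7 and 88.0 on day 8. PCK1 in BF thus had its highest libraries on day 2, replicate 3 being the lowest of that group, and in IMF it stayed under 1 FPKM until day 8. PGAM2, the muscle form of the mutase, fell over the whole course in both depots (-1.30 in BF and -1.20 in IMF), and ENO3, the muscle enolase, was higher in IMF than in BF on day 8 by 2.59 (SE 0.18, adjusted p = 1.49e-09).

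Markers of other cell types moved on some of the same days. The 7 stromal markers with a row held 4.41 to 4.72% of FPKM in BF-0d and 1.66 to 1.81% in BF-8d, and in IMF 3.57 to 3.75% on day 4 and 1.92 to 2.38% on day 8. Single genes weighed heavily in these shares: in BF over the whole course COL1A1, COL1A2 and DCN fell, PDGFRA rose, and the median change of the 7 was 0.31. The 12 myogenic markers summed to 4.86 to 5.25 FPKM in BF-0d and 0.453 to 0.727 in BF-8d. In IMF they summed to 30.7 to 46.8 FPKM on day 0, nearly all of it DES (29.6, 36.2 and 45.3), 3.35 to 5.35 on day 2, 10.4 to 13.5 on day 4 and 2.05 to 3.15 on day 8. DES fell in IMF over the first interval (-2.96) and over the last (-2.25), the interval in which 19 of the 32 genes rose. The 8 immune markers summed to 5.77 to 7.09 FPKM in BF-0d, 14.5 to 19.5 in BF-8d, 7.54 to 8.03 in IMF-0d and 14.3 to 18.9 in IMF-8d, and of the 4 tested TYROBP alone rose over the whole course, in both depots. The 7 endothelial markers with a row summed to 19.9 to 22.4 FPKM in BF-0d, 6.53 to 9.68 in BF-8d, 22.2 to 27.3 in IMF-0d and 11.8 to 13.1 in IMF-8d, with KDR at no more than 0.101 FPKM. The 15 adipocyte markers with a row summed to 111 to 114 FPKM in BF-0d and 347 to 705 in BF-8d, and to 134 to 139 in IMF-0d and 173 to 217 in IMF-8d. LPL made up most of the day 8 sums in both depots. Without LPL the sums were 108 to 112 and 70.9 to 94.2 FPKM in BF and 133 to 138 and 68.2 to 79.8 in IMF on days 0 and 8, lower on day 8 in both depots, but 143 to 176 in BF-2d, above BF-0d. Of the 10 tested, 5 had positive and 5 negative changes in BF over the whole course (median -0.09), with LPL called higher and PPARG, the master regulator of fat cell formation, called lower. Over the last IMF interval 2 rose (LPL and AGPAT2) and 3 fell (CEBPA, FASN and SCD), where 4.16% of all genes were called higher and 3.08% lower. Markers also moved over the first BF interval, in which 11 of 17 enzymes rose. The stromal share was 2.36, 1.70 and 3.64% in BF-2d and the endothelial sum 8.67, 5.32 and 11.5 FPKM, with replicate 3 nearest to day 0 in both. LPL, CEBPA, FASN and PDGFRA rose over this interval, and FABP4, COL1A1, PECAM1, ERG and DES fell, 4 and 5 of the 27 markers tested, or 4 and 7 without BF-2d replicate 3 (background 2.71% higher and 3.87% lower). In BF-4d the immune markers summed to 5.03, 4.23 and 19.6 FPKM and the endothelial markers to 5.45, 6.70 and 13.6. Replicate 3, highest in both, is the library that was also highest of its group for PFKFB3 and VEGFA. The part of these shifts in the values of the glycolytic and HIF-linked genes was not tested.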

How the data were processed

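Poly(A) RNA was sequenced from 24 libraries in 8 depot-by-day groups of 3. The authors mapped reads to the Sscrofa11.1 pig genome with HISAT2 and computed FPKM values with StringTie 1.3.4d, and deposited them as 1 column per library. They hold no counts, so count models were not used and depth is unknown. From them, FPKM + 1 was log2 transformed for the 16135 of 25462 genes whose FPKM summed above 1 over the libraries. Using limma 3.58.1 under R 4.3.3 (empirical Bayes with trend and robust), all 24 libraries entered 1 model that gave each group its own mean, with Benjamini-Hochberg adjustment over all genes tested. The 8 groups shared 1 estimate of the spread per gene. Calls needed an adjusted p under 0.01 and a log2 fold change of at least 1 in size, the thresholds of the study. The fit was run on simulated data in which all groups of a gene had the same spread, so groups of unequal spread were not covered. The 12 pairwise comparisons and 3 depot differences in change were made. The members, gene lists and tests were chosen with earlier results of these data known. Values in every library are given for the members of each role called in the most pairwise comparisons (up to 5 a role, ties by the largest absolute change), and for VEGFA, LDHA, GAPDH and HIF1A. The BF libraries of ALDOC are given in addition. Of other pathway lists, genes among the 3 largest changes called in a comparison may be named. Alternatives were a pseudocount of 0.1, no filter, a stricter filter (1 FPKM in 3 libraries), quantile normalization, median-ratio scaling, fits of only the libraries compared, a replicate block, and leaving out each library. Promoter windows came from RefSeq gene models. LDHB has 2 RefSeq loci and was left out of the promoter search. The 24 libraries held 0 identical pairs.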

Additional observations from a re-analysis of the deposited data

Results flagged for a closer look

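The change over an interval differed between depots, by limma's test of the difference itself (adjusted p under 0.01 and a log2 size of at least 1), for 26 pairs of gene and interval. Values are the IMF change minus the BF change. Over day 0 to day 2 these were SLC16A3 (-5.15), ALDOA (-2.39), TPI1 (-2.06), ENO1 (-2.02), PFKL (-2.01), PGAM1 (-1.81), NDRG1 (-1.76), LDHA (-1.74), GAPDH (-1.67), PGK1 (-1.66), PKM (-1.48), ALDOC (-1.45) and GPI (-1.39), all lower in IMF. Over day 2 to day 4 they were VEGFA (-2.42) and EGLN3 (-2.42). Over day 4 to day 8 they were SLC16A3 (3.43), LDHA (1.76), TPI1 (1.73), ALDOA (1.69), PFKL (1.64), PGK1 (1.59), ENO1 (1.45), EPAS1 (1.45), PGAM1 (1.38), GAPDH (1.29) and PKM (1.20), all higher in IMF. The first and second intervals share the BF-2d and IMF-2d libraries, and the second and last share the day 4 libraries.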

How the results depend on the processing

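Fits of only the libraries compared gave the lowest counts of members called for several comparisons: 1 in place of 14 for BF day 0 to day 2, 0 in place of 2 for BF day 2 to day 4, 0 in place of 3 for BF day 4 to day 8, 0 in place of 8 between depots on day 2, and 3 in place of 13 and 0 in place of 2 for the depot differences over the first and second intervals. They gave 1 in place of 0 for IMF day 0 to day 2. Such fits estimate the spread from fewer libraries, and from the compared groups alone. Elsewhere their counts were close to those reported: 23 and 23 for BF day 0 to day 8, 20 and 19 for IMF day 4 to day 8, and 10 and 9 for IMF day 0 to day 8. Between depots they gave 4 and 4 on day 0, 15 and 17 on day 4 and 5 and 5 on day 8. The depot difference over the last interval gave 12 and 11. Quantile normalization gave 9 for BF day 0 to day 2, and median-ratio scaling gave 2 in place of 4 between depots on day 0. The cause was not tested. Leaving out 1 library gave 6 to 17 for BF day 0 to day 2, 2 to 3 for day 2 to day 4, 1 to 4 for day 4 to day 8 and 22 to 23 for day 0 to day 8. In IMF it gave 0 to 0 for the first and second intervals, 16 to 18 for the last and 7 to 11 for day 0 to day 8. Between depots it gave 2 to 3 on day 0, 4 to 15 on day 2, 16 to 19 on day 4 and 4 to 5 on day 8, and for the depot differences in change 12 to 19, 1 to 4 and 10 to 12.

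Of 130 calls of single members in the 15 comparisons, 102 were kept whichever library was left out, 130 with a pseudocount of 0.1, 130 with the stricter filter, 127 under median-ratio scaling, 123 without a filter, 115 after quantile normalization and 89 in fits of only the libraries compared. No alternative reversed the direction of any of these 130 calls. Values that were not called could turn: the enzyme median over BF day 2 to day 4 was 0.18, and -0.09 without BF-2d replicate 3. Libraries with the same replicate number did not consistently deviate together (correlation above 0.1 in 9 of 84 pairs, range -0.454 to 0.457), so they were not treated as pairs. Whether a number marks 1 piglet is not given in the sources used here. With the replicate number as a block 128 of the 130 calls were kept, with counts of 13 for BF day 0 to day 2 and 4 between depots on day 8. FPKM without counts give no measure of depth, and genes near 0 FPKM have understated folds on this scale.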
